A study of Mus musculus with 12 samples.

Results

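The Toll-like receptor genes other than Tlr4 were followed in RNA-seq of mouse bone marrow neutrophils. The 9 genes are Tlr1, Tlr2, Tlr3, Tlr5, Tlr6, Tlr7, Tlr8, Tlr9 and Tlr13. They were chosen by gene symbol among the 37310 genes of the count table, and all 9 had an entry. A filter on low counts left 12917 genes for testing, 8 of the 9 receptor genes among them, Tlr3 being the one left out.

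The 12 libraries formed 4 groups of 3, all labelled C57BL/6: Runx1KO cells with lipopolysaccharide (LPS), Runx1KO cells with vehicle, Control cells with LPS and Control cells with vehicle. LPS was given at 100 ng/mL, and every culture lasted 2 h before RNA was taken. Cells were sorted from crushed hind limb bones as CD11b+, Ly6G+, Siglec F- and F4/80-. The series' description of the Control sample names LKS- cells, a marrow fraction, pooled from a Runx1f/f and a Runx1f/- mouse, the second with 1 germline mutant allele, while each sample is labelled as sorted neutrophils. By that description the Control cells are not plain wild type. The sources used here name no Cre line for the knockout, no deleted exon and no age of the mice. Runx1 encodes a transcription factor that blood stem cells need to form and that shapes myeloid and lymphoid cells.

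Toll-like receptors detect microbial molecules. On the cell surface, TLR2 binds bacterial lipoproteins in pairs with TLR1 or TLR6, and TLR5 binds flagellin. In endosomes, TLR3 and TLR7 bind viral-type RNA, TLR9 binds unmethylated CpG DNA and TLR13, present in mice and missing in humans, binds bacterial ribosomal RNA. TLR8 senses RNA breakdown products in humans. The receptors signal through the adaptor MyD88, except TLR3, which uses TRIF, and neutrophils answer with cytokines, oxidant and longer survival. LPS is sensed by TLR4 and is not the ligand of the receptors described here.

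Total counts were 19023610 to 26225169 a library and TMM factors, which rescale library sizes for composition, 0.70 to 1.20. The 10 neutrophil markers were all present, with 0 of 10 called in any of the 4 comparisons of groups. They summed to 98873 to 150894 CPM in every library, where CPM is a gene's count scaled by the TMM-adjusted total of its library. With vehicle the sum was lower in every Runx1KO library, at 98873 to 128485 CPM, than in the Control ones, at 129954 to 142017 CPM. With LPS the genotypes overlapped, at 139628 to 146929 CPM in Runx1KO and 125538 to 150894 CPM in Control libraries. The part of this in the receptor results was not tested. Runx1 transcripts were not lower in the knockout. They stood at 60.5, 68.4 and 75.4 CPM in Runx1KO vehicle libraries 1, 2 and 3, against 36.8, 56.2 and 38.7 CPM in Control vehicle libraries. Their log2 fold change was 0.63 with vehicle (SE 0.29, adjusted p 0.656 in edgeR's test) and 0.64 with LPS (SE 0.29, adjusted p 0.492). A sum of reads over the whole gene does not show the loss of part of it, and so does not check the genotype labels here. Xist was at 0 in the library numbered 2 of every group, where the Y-linked Ddx3y was at 109 to 192 CPM, whereas the other libraries held Xist and at most 1 read of Ddx3y; the number-2 libraries therefore came from other mice than those numbered 1 and 3. Tlr7, Tlr8 and Tlr13 lie on the X chromosome, and the part of sex in their levels was not tested. Nothing in the labels says that libraries 1 and 3 came from separate mice, so each p-value measures a spread among libraries that may be technical.

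Tlr2 was by far the most abundant of these transcripts per length in every group, and Tlr13 came next. Levels between genes are compared as CPM per kb of exon, from exon lengths of 3.01 to 5.21 kb. Tlr2 averaged 500 ± 417 CPM per kb in Runx1KO LPS, 200.2 ± 133 in Runx1KO vehicle, 396 ± 115 in Control LPS and 232 ± 78.6 in Control vehicle libraries (SD, n = 3 each). Tlr13 averaged 30.8 ± 13.7, 26.7 ± 5.79, 38.6 ± 15.3 and 32.9 ± 11.4 CPM per kb in the same order of groups. In no group did the Tlr2 and Tlr13 libraries overlap, nor those of Tlr13 and the gene ranked after it. Tlr2 made up 53.0 to 93.7% of the summed CPM per kb of the 9 genes in a library, and Tlr13 4.31 to 34.2%.

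Below them stood Tlr7, Tlr6, Tlr8, Tlr1 and Tlr5, each between 0.249 and 9.40 CPM per kb as a group mean, and Tlr9 between 0.0931 and 0.552. Tlr7 came at rank 3 in Runx1KO LPS, Runx1KO vehicle and Control LPS cells, and at rank 4, after Tlr6, in Control vehicle cells. Neighbours from rank 3 to rank 6 overlapped in every group, so their order there is not beyond the spread. Tlr5 ranked above Tlr1 in both Control groups and below it in both Runx1KO groups; in Runx1KO vehicle cells their libraries did not overlap, while in the Control groups they did overlap. Tlr3, the RNA receptor with TRIF as its adaptor, had 2 reads in Control vehicle library 1 and 0 in the other 11 libraries, where 3 counts, the limit that a count of 0 allows, would be 0.114 to 0.158 CPM. Of the family's further members, Tlr11 had 0 reads in all 12 libraries.

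**Figure D1:**
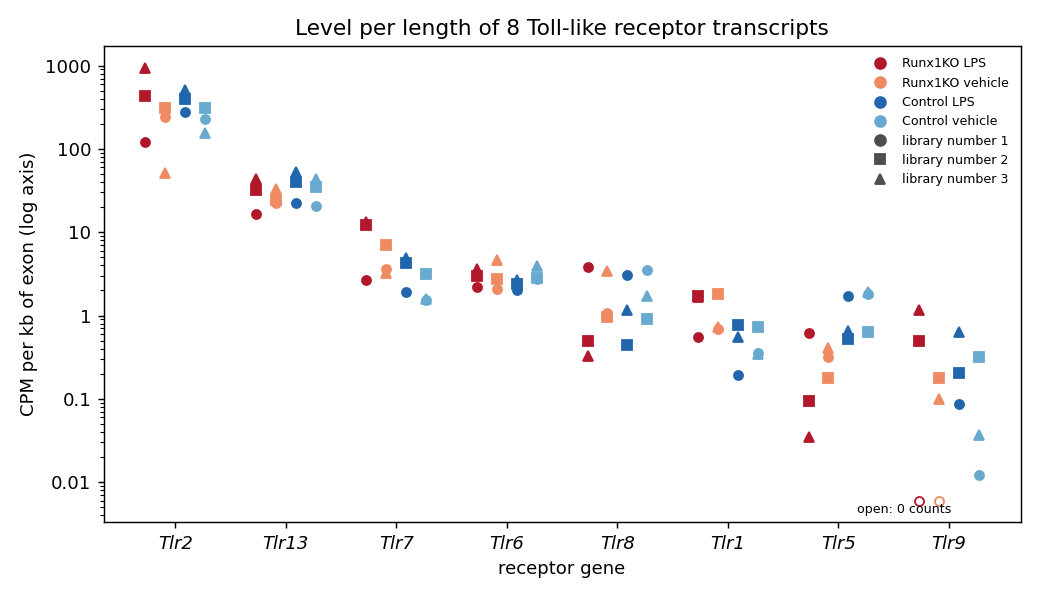
CPM per kb of exon on a log axis for 8 receptor genes in the 12 libraries; colour gives the group, shape the library number, and open points near the bottom are libraries with 0 counts. Tlr2 and Tlr13 stand apart at the top in every library, while the ranges of the genes below them overlap.

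Between the genotypes, no receptor gene passed the test, but Tlr5 was lower and Tlr7 and Tlr1 were higher in Runx1KO than in Control in each of the 6 pairs of libraries that share a treatment and a number. With edgeR's quasi-likelihood test and Benjamini-Hochberg adjustment over all genes, 0 of 8 receptor genes were called at an adjusted p under 0.05 with vehicle, where 0.952% of all genes tested were (123 of 12917, 45 higher and 78 lower). With LPS 0 of 8 were called, against 0.921% of all genes (119 of 12917). At an unadjusted p under 0.05, 1 of 8 stood out with vehicle (Tlr5, lower; 7.79% of all genes) and 3 of 8 with LPS (Tlr7 and Tlr1 higher, Tlr5 lower; 10.1% of all genes). DESeq2 and limma-voom on the same 4 groups also called 0 of 8 in both comparisons. The median log2 fold change of the 8 genes was -0.18 with vehicle and 0.32 with LPS, beside 0.0025 and 0.031 over all genes tested.

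Tlr5, the flagellin receptor, showed the largest genotype difference of the 8. It had 1.54, 0.84 and 1.93 CPM in Runx1KO vehicle libraries 1, 2 and 3, against 8.78, 3.04 and 9.26 CPM in Control vehicle libraries. Every Runx1KO vehicle library was below every Control one; 7.82% of all genes tested also had all Runx1KO vehicle libraries lower. The log2 fold change was -2.28 (SE 0.84) with an adjusted p of 0.397 in edgeR's test. With LPS, Tlr5 had 2.95, 0.45 and 0.17 CPM in Runx1KO, against 8.22, 2.48 and 3.15 CPM in Control libraries. Here the groups overlapped at 1 point, Runx1KO library 1 lying above Control library 2. The log2 fold change was -1.93 (SE 0.85; adjusted p 0.460 in edgeR's test). Counts were small, 112 reads over the 3 Runx1KO vehicle libraries against 504 in Control, and 82 reads over the Runx1KO LPS libraries against 280 in Control. Within the same-number pairs the log2 difference was -2.45, -1.75 and -2.21 with vehicle and -1.45, -2.26 and -3.66 with LPS. A gene that was lower in all 6 pairs was not rare, at 9.3% of all genes tested.

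Library numbers pair the samples between genotypes, as libraries with the same number deviated together from their group means (correlation across genes 0.374 to 0.479 with vehicle and 0.429 to 0.566 with LPS). With the library number as a replicate block in edgeR, the receptor genes called stayed at 0 while genes called over the table reached 315 with vehicle and 302 with LPS. Tlr5 then had an adjusted p of 0.104 with vehicle and 0.124 with LPS. 2 further fits with the block, chosen after the data were seen, did call it: DESeq2 gave Tlr5 an adjusted p of 0.00653 with vehicle and 0.00885 with LPS, and limma-voom 0.0377 with vehicle. The DESeq2 fit with the block also called Tlr1 with LPS (adjusted p 0.0192). Over the table it called 707 genes with vehicle (5.47%) and 778 with LPS (6.02%). The limma-voom fit with the block called 3.05% of all genes with vehicle.

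Tlr7, the endosomal RNA receptor, went the other way. It had 14.7, 28.5 and 13.1 CPM in Runx1KO vehicle libraries 1, 2 and 3, against 6.22, 12.9 and 6.51 CPM in Control vehicle libraries. Every Runx1KO library was above every Control one by a small margin (13.1 against 12.9 CPM at the nearest), as for 5.42% of all genes tested, and the log2 fold change was 1.14 (SE 0.57; adjusted p 0.736 in edgeR's test). With LPS it had 11.0, 49.3 and 54.8 CPM in Runx1KO, against 7.82, 17.3 and 20.004 CPM in Control libraries, and the groups overlapped through Runx1KO library 1. The log2 fold change there was 1.35 (SE 0.57; adjusted p 0.444 in edgeR's test). In both vehicle groups the number-2 library, the one with Y-linked reads, held the most Tlr7. In both LPS groups it was the number-3 library, which held Xist (54.8 against 49.3 CPM in Runx1KO and 20.004 against 17.3 CPM in Control for numbers 3 and 2).

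Tlr1, a partner of TLR2 for triacylated lipoproteins, was higher in Runx1KO in 6 of 6 pairs at a low level. It had 2.31, 5.98 and 2.45 CPM in Runx1KO vehicle libraries, against 1.18, 2.44 and 1.14 CPM in Control vehicle libraries. The 2 groups overlapped narrowly, and the log2 fold change was 1.17 (SE 0.61; adjusted p 0.763 in edgeR's test). With LPS it had 1.84, 5.66 and 5.51 CPM in Runx1KO, against 0.65, 2.58 and 1.84 CPM in Control libraries, with a log2 fold change of 1.36 (SE 0.61; adjusted p 0.480 in edgeR's test). Being higher in all 6 pairs was seen for 7.75% of all genes tested.

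Tlr6, the partner for diacylated lipoproteins, lay close together in the 2 genotypes with vehicle. It had 7.73, 10.2 and 17.1 CPM in Runx1KO vehicle libraries, against 10.2, 10.5 and 14.8 CPM in Control vehicle libraries (log2 fold change -0.02, SE 0.32; adjusted p 1.00 in edgeR's test). With LPS it had 8.09, 11.01 and 13.4 CPM in Runx1KO, against 7.52, 8.80 and 9.88 CPM in Control libraries (log2 fold change 0.31, SE 0.32). Tlr1 and Tlr6 are neighbours on chromosome 5 and near-identical in part: 454 of 2976 50-base windows of the Tlr1 transcript (15.3%) also occur in Tlr6. The sources used here do not say how reads that fit both were counted, so both counts are uncertain. Of the 3628 windows of Tlr6, 454 also occur in Tlr1, and Tlr6 had more reads than Tlr1 in every library. In Control vehicle library 3 there were 351 reads of Tlr6 against 27 of Tlr1. The Tlr1 counts could therefore be off by more than 15.3%. The ratio of Tlr1 to Tlr6 reads was higher in Runx1KO in 6 of 6 pairs. It was 0.298, 0.584 and 0.143 in Runx1KO vehicle libraries against 0.115, 0.231 and 0.0769 in Control vehicle libraries. The ratio largely restates the Tlr1 difference, and as it uses the same counts it cannot settle how shared reads were assigned.

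The other 4 tested receptors had no common direction between genotypes. Tlr2 had 726, 928 and 155 CPM in Runx1KO vehicle libraries, against 689, 940 and 467 CPM in Control vehicle libraries, the groups overlapping and the log2 fold change -0.21 (SE 0.69). With LPS it had 367, 1302 and 2854 CPM in Runx1KO, against 843, 1203 and 1536 CPM in Control libraries (log2 fold change 0.34, SE 0.69). The lowest Runx1KO library was below the lowest Control library in each treatment, and with LPS the highest was above the highest Control library. Tlr13 was lower in Runx1KO in 5 of 6 pairs by small amounts, and the share of all genes with that count was not computed. It had 97.3, 104 and 143 CPM in Runx1KO vehicle libraries against 88.8, 149 and 186 CPM in Control vehicle libraries (log2 fold change -0.30, SE 0.42). With LPS Tlr13 stood at 70.5, 140.1 and 187 CPM in Runx1KO, against 96.9, 173 and 228 CPM in Control libraries (log2 fold change -0.32, SE 0.42).

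Tlr8 spread widely within every group, and its genotype difference was within that spread. It had 3.89, 3.46 and 12.3 CPM in Runx1KO vehicle libraries, against 12.5, 3.24 and 6.13 CPM in Control vehicle libraries (log2 fold change -0.15, SE 0.93). With LPS it had 13.5, 1.80 and 1.18 CPM in Runx1KO, against 11.0, 1.57 and 4.14 CPM in Control libraries (log2 fold change -0.01, SE 0.94). Tlr9, the DNA receptor, was at 0 in library 1 of both Runx1KO groups, and at 0.62 and 0.35 CPM in the other Runx1KO vehicle libraries, against 0.042, 1.12 and 0.13 CPM in Control vehicle libraries. Its standard errors of 1.52 with vehicle and 1.41 with LPS leave its direction unsettled. Tlr4, for comparison, had a log2 fold change of 0.67 with vehicle (SE 0.49; adjusted p 0.960 in edgeR's test) and 1.24 with LPS (SE 0.50; adjusted p 0.410), higher in Runx1KO in 6 of 6 pairs. With the replicate block edgeR called Tlr4 with LPS, at an adjusted p of 0.0455, where it called 2.34% of all genes.

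**Figure D2:**
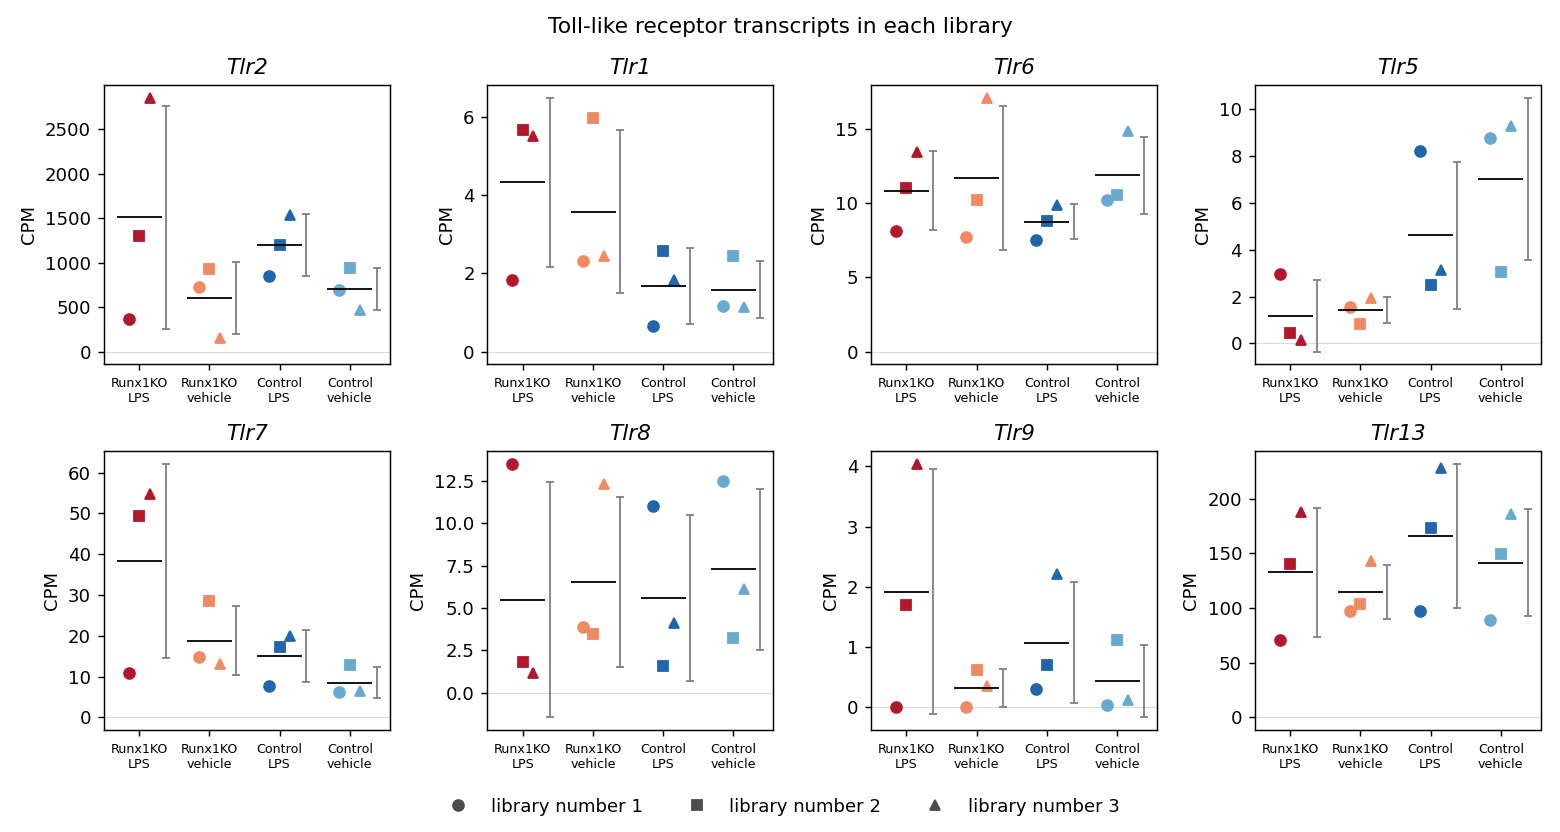
CPM of 8 receptor genes in each library, with LPS beside vehicle and Runx1KO left of Control; the horizontal line is the group mean, the bar beside it ± 1 SD (n = 3), and the shape gives the library number. Tlr5 is lower and Tlr7 and Tlr1 are higher in Runx1KO for every same-number pair, while Tlr2 and Tlr8 spread widely within groups.

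After LPS, no receptor gene and no gene of the table passed the test in either genotype. With edgeR's quasi-likelihood test 0 of 8 receptor genes were called in Runx1KO cells and 0 of 8 in Control cells, with 0% of all genes called in both, and 0 of 8 reached an unadjusted p under 0.05, against 5.23% of all genes in Runx1KO and 0.604% in Control. DESeq2 called 1 gene in Runx1KO and 0 in Control, none of them a receptor gene, and limma-voom called 0 in both. Transcripts of genes that respond to LPS were also high in some vehicle libraries. Summed over 10 genes known to respond to LPS (among them Tnf, Il1b, Cxcl2 and Nfkbia), transcripts reached 15761, 29314 and 68939 CPM in Runx1KO LPS libraries 1, 2 and 3, against 16011, 16532 and 1344 CPM in Runx1KO vehicle libraries. The Control LPS libraries had 22173, 19655 and 24724 CPM, against 16517, 12705 and 2496 CPM in Control vehicle libraries. Only the number-3 vehicle libraries were low, and Runx1KO LPS library 1 was not above the vehicle library of that number. Why the vehicle libraries differed in this sum was not tested.

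Tlr2 was higher with LPS in 5 of 6 comparisons of same-number libraries, the exception being Runx1KO number 1. The numbers pair LPS and vehicle libraries in Control cells (correlation of deviations 0.394 to 0.667). In Runx1KO cells numbers 1 and 2 also matched their own number best (0.314 and 0.537). Number 3 there had a correlation of 0.0058 and matched another number better (0.218). The Runx1KO libraries numbered 3 are therefore not shown to be paired across treatments, here and in the counts out of 6 for the other receptors. In Runx1KO Tlr2 had 367, 1302 and 2854 CPM with LPS, against 726, 928 and 155 CPM with vehicle, so that the log2 difference at the same number was -0.98, 0.49 and 4.20. In Control it had 843, 1203 and 1536 CPM with LPS, against 689, 940 and 467 CPM with vehicle, and the differences were 0.29, 0.36 and 1.72. The largest difference in each genotype was that of number 3, whose vehicle library had the low LPS-responsive sum. The fitted log2 fold change was 1.32 in Runx1KO (SE 0.70; adjusted p 0.873 in edgeR's test) and 0.77 in Control (SE 0.69; adjusted p 1.00). Without the libraries numbered 3 the Runx1KO value was -0.0053.

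Tlr7 and Tlr13 were also higher with LPS at 5 of 6 numbers, a count reached, like that of Tlr2, by 19.1% of all genes tested. Tlr7 had 11.0, 49.3 and 54.8 CPM with LPS, against 14.7, 28.5 and 13.1 CPM with vehicle in Runx1KO cells (log2 fold change 1.03, SE 0.57), and 7.82, 17.3 and 20.004 CPM with LPS against 6.22, 12.9 and 6.51 CPM with vehicle in Control cells (0.82, SE 0.57). The Tlr13 log2 fold changes were small, 0.21 in Runx1KO (SE 0.42) and 0.23 in Control (SE 0.42). With library size alone as the scaling, the Runx1KO value was -0.22, where the median of all genes moved to -0.28. Tlr9 had 0, 1.71 and 4.05 CPM with LPS, against 0, 0.62 and 0.35 CPM with vehicle in Runx1KO cells, and 0.30, 0.71 and 2.21 CPM with LPS against 0.042, 1.12 and 0.13 CPM with vehicle in Control cells. Its log2 fold changes of 2.55 (SE 1.51) and 1.31 (SE 1.47) rest on 110 reads over the Runx1KO LPS libraries against 24 with vehicle, and on 67 reads over the Control LPS libraries against 32 with vehicle.

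Tlr5 and Tlr8 were lower with LPS at 5 of 6 numbers each, as were 18.3% of all genes tested. For both, the exception was Runx1KO number 1, at which the LPS-responsive sum was not higher with LPS. In Runx1KO number 3, Tlr5 had 0.17 CPM with LPS, or 3 reads, against 1.93 CPM with vehicle, and Tlr8 had 1.18 CPM with LPS against 12.3 CPM with vehicle. The fitted log2 fold change of Tlr5 was -0.25 in Runx1KO (SE 0.84) and -0.61 in Control (SE 0.80), that of Tlr8 -0.25 (SE 0.93) and -0.39 (SE 0.93). Tlr6 in Control cells was the 1 receptor whose LPS libraries all lay below the vehicle libraries, with 7.52, 8.80 and 9.88 CPM against 10.2, 10.5 and 14.8 CPM (log2 fold change -0.44, SE 0.32; adjusted p 1.00 in edgeR's test); 2.32% of all genes tested were separated that way. Tlr1 showed no steady direction, being higher at 3 of 6 numbers. The test of the difference between the LPS responses called 0 of 8 receptor genes and 0% of all genes, and the differences ran from -0.02 for Tlr13 (SE 0.59) to 1.24 for Tlr9 (SE 2.07), each smaller than its standard error; 0 of 8 had an unadjusted p under 0.05, against 0.596% of all genes.

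**Figure D3:**
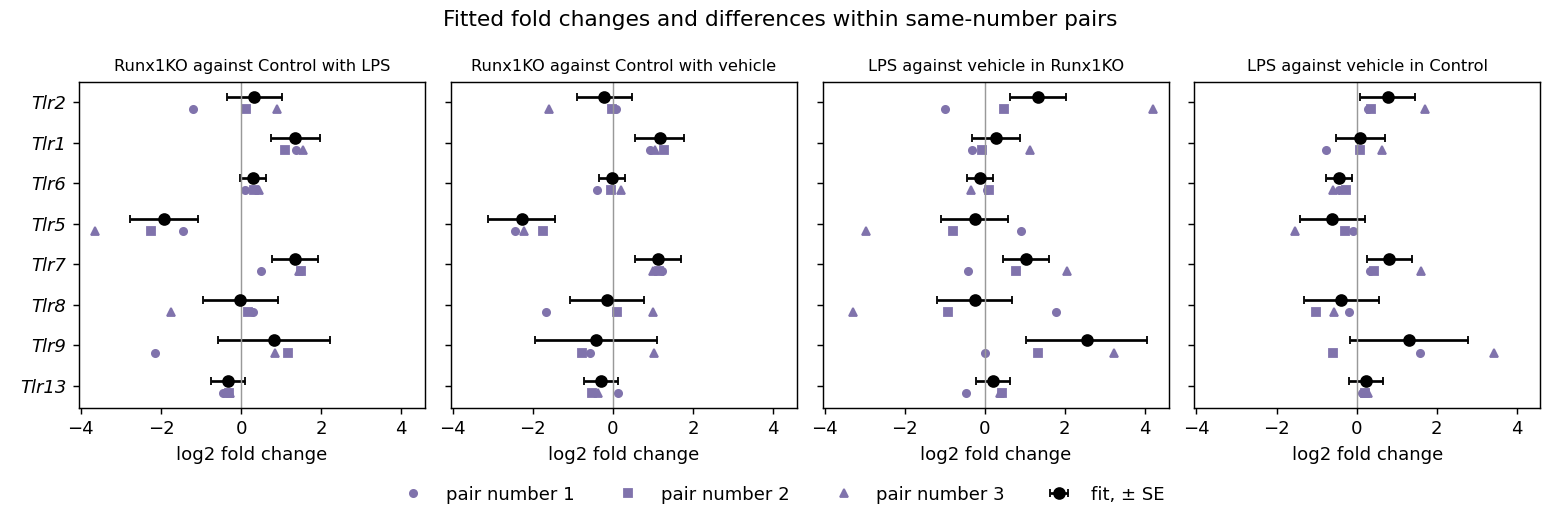
Log2 fold changes of 8 receptor genes in the 4 comparisons; black points with bars are the fitted values ± SE and the purple shapes the differences within same-number pairs. The Tlr5 pairs all lie below 0 and the Tlr7 and Tlr1 pairs above 0 in both genotype panels. In the LPS panels number 1 and number 3 lie far apart in Runx1KO cells, where the libraries numbered 3 did not deviate together.

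Across the 12 libraries the receptors ranged from high Tlr5 with low Tlr7 to the opposite. The 3 libraries with the least Tlr5 (Runx1KO LPS 3, Runx1KO LPS 2 and Runx1KO vehicle 2) were the 3 with the most Tlr7 and the 3 with the most Tlr1. The 3 with the most Tlr5 (Control vehicle 3, Control vehicle 1 and Control LPS 1) were the 3 with the least Tlr7 and the 3 with the least Tlr1. The ratio of Tlr7 to Tlr5 reads was 3.72, 109.7 and 325 in Runx1KO LPS libraries and 9.58, 33.8 and 6.80 in Runx1KO vehicle libraries, against 0.951, 6.98 and 6.34 in Control LPS and 0.708, 4.24 and 0.703 in Control vehicle libraries. The ratio restates the opposite directions of the 2 genes, and as a ratio of reads within a library it does not depend on how libraries are scaled. The opposition also held inside each genotype. Over the 6 libraries of a genotype, Pearson's r of Tlr5 and Tlr7 in log2 CPM was -0.97 in Runx1KO and -0.95 in Control. Tlr1 ran with Tlr7 (0.93 and 0.75) and against Tlr5 (-0.86 and -0.89). The genotype differences of Tlr5, Tlr7 and Tlr1 are therefore not separate observations.

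**Figure D4:**
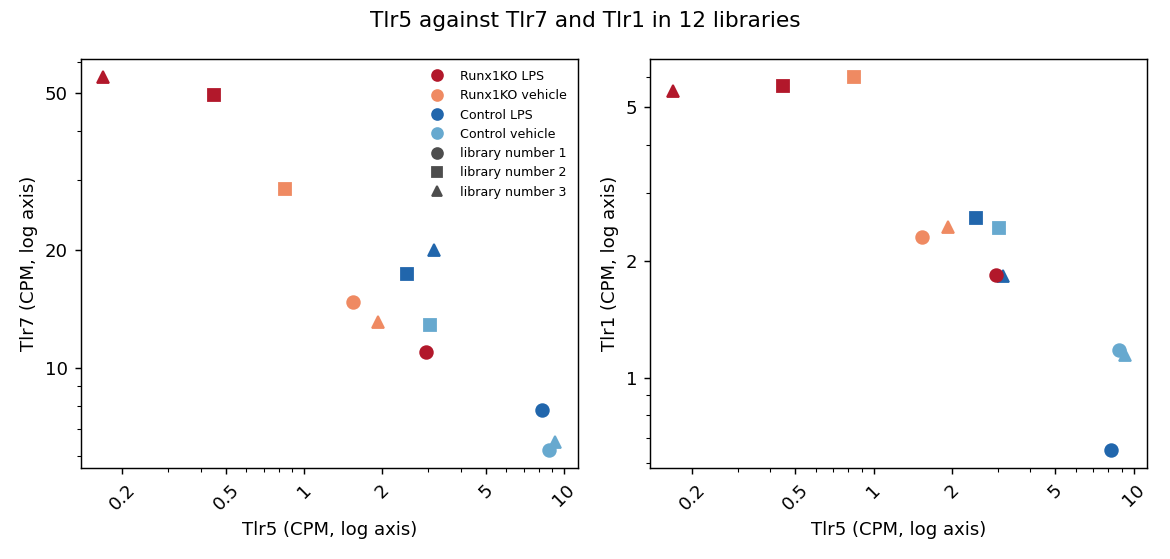
Tlr7 (left) and Tlr1 (right) against Tlr5 in each of 12 libraries, in CPM on log axes; colour gives the group and shape the library number. The 3 libraries with 0.17 to 0.84 CPM of Tlr5 have the most Tlr7 and Tlr1, and the 3 with 8.22 to 9.26 CPM the least; Runx1KO libraries lie mostly at the upper left.

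The extremes of Tlr2 and of the LPS-responsive sum fell in the same libraries. The lowest Tlr2 level, 155 CPM, and the highest, 2854 CPM, were in Runx1KO vehicle library 3 and Runx1KO LPS library 3, which also held the lowest and the highest LPS-responsive sum (1344 and 68939 CPM). Runx1KO LPS library 1 lay below the other libraries of similar sum, with 367 CPM of Tlr2 and 13.5 CPM of Tlr8, the highest Tlr8 level of the 12 libraries. Tlr8 was at 1.18 to 1.80 CPM in Runx1KO LPS libraries 3 and 2 and Control LPS library 2, and at 11.0 to 13.5 CPM in all number-1 libraries but Runx1KO vehicle.

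**Figure D5:**
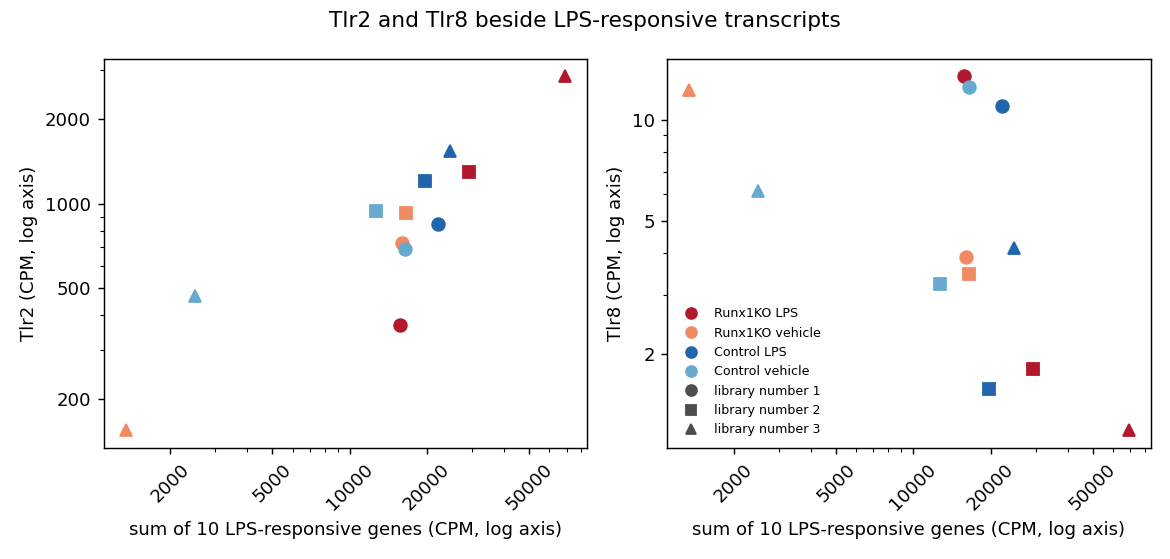
Tlr2 (left) and Tlr8 (right) against the summed level of 10 LPS-responsive genes in each of 12 libraries, in CPM on log axes. Tlr2 climbs with the sum, from 155 CPM in Runx1KO vehicle library 3 to 2854 CPM in Runx1KO LPS library 3, and the number-1 and number-2 vehicle libraries sit beside LPS libraries.

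The summed level of 10 monocyte and macrophage markers was highest in the 3 libraries with the most Tlr7 and Tlr1. It was lowest in the 3 with the least. The sum of 8 of these markers was higher in Runx1KO in each same-number pair, but did not follow Tlr7 in every library. Of the 10, 8 were tested and 0 called between genotypes in either treatment. The tested markers had a median log2 fold change of 0.79 with vehicle and 1.22 with LPS. All 10 were in the table. Their summed level was 154, 662 and 1986 CPM in Runx1KO LPS libraries 1, 2 and 3, 207, 561 and 408 CPM in Runx1KO vehicle, 102, 472 and 508 CPM in Control LPS and 106, 379 and 99.2 CPM in Control vehicle libraries. Csf1r and Adgre1 carried most of it, and Adgre1, which encodes the F4/80 antigen that the sort selected against, stood at 20.1, 318 and 1220 CPM in Runx1KO LPS libraries, against 16.4, 122 and 207 CPM in Control LPS libraries. The other 8 markers summed to 4.21 to 38.2 CPM. With LPS their sum was 17.1, 17.6 and 24.5 CPM in Runx1KO libraries 1, 2 and 3, against 4.21, 5.31 and 13.6 CPM in Control. With vehicle it was 13.9, 21.3 and 38.2 CPM in Runx1KO, against 4.70, 5.27 and 22.9 CPM in Control libraries. The highest sum of these 8 was in Runx1KO vehicle library 3, the lowest of its group in Tlr7. They stood at 22.9 CPM in Control vehicle library 3 against 5.27 CPM in library 2, where Tlr7 was higher. The macrophage genes C1qa, C1qb, Mrc1 and Ms4a7 ranged from 0 to 3.43 CPM. The part of these markers in the Tlr7 and Tlr1 results was not tested. In bulk samples fewer cells of a type and less RNA per cell cannot be told apart. The 10 dendritic cell markers summed to 9.55 to 34.6 CPM and the 8 B lineage markers to 22.4 to 95.0 CPM, the B lineage sum being 22.4 to 49.1 CPM in Runx1KO LPS and 24.5 to 25.2 CPM in Runx1KO vehicle, against 30.8 to 95.0 CPM in Control LPS and 27.8 to 84.2 CPM in Control vehicle libraries. Of 7 B lineage markers tested, edgeR called 2 lower in Runx1KO with vehicle and 1 with LPS, and of 6 dendritic cell markers 0. Of 7 megakaryocyte and platelet markers, 4 were called higher in Runx1KO with vehicle and 2 with LPS. Their median log2 fold change was 3.70 with vehicle and 3.31 with LPS. Their sum was 40.3 to 54.4 CPM in Runx1KO LPS and 45.8 to 52.7 CPM in Runx1KO vehicle libraries. In Control it was 30.2 to 35.0 CPM with LPS and 28.1 to 34.8 CPM with vehicle. Of 5 basophil and mast cell markers tested, 2 were called lower with vehicle and 1 with LPS. Their median log2 fold change was -7.03 with vehicle and -7.04 with LPS, at levels near 0 in Runx1KO. The 6 markers in the table summed to 1.26 to 2.92 CPM in Runx1KO LPS and 1.20 to 1.98 CPM in Runx1KO vehicle libraries. In Control the sum was 3.54 to 25.7 CPM with LPS and 5.83 to 25.3 CPM with vehicle. The part of these cells in the receptor results was not tested either. No marker of eosinophils, T and NK cells or erythroid cells was called between genotypes. The 6 erythroid markers still had a median log2 fold change of 1.38 with vehicle and 1.19 with LPS. With vehicle they summed to 990, 1497 and 117 CPM in Runx1KO libraries 1, 2 and 3, against 633, 214 and 159 CPM in Control. With LPS the sums were 1063, 1715 and 216 CPM in Runx1KO, against 686, 250 and 200 CPM in Control libraries. The part of erythroid cells in the receptor results was not tested.

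Genes that serve the receptors did not pass the test either. Of 19 genes for folding, trafficking and ligand processing, 17 were in the table and 16 were tested, with 0 called in any comparison (0.952% and 0.921% of all genes in the genotype comparisons). Their median log2 fold change was 0.11 with vehicle and 0.10 with LPS between genotypes. Unc93b1, the chaperone that carries endosomal receptors out of the endoplasmic reticulum, had 204, 301 and 591 CPM in Runx1KO LPS libraries, against 178, 184 and 180.4 CPM in Control LPS libraries (log2 fold change 1.01; adjusted p 0.367 in edgeR's test). At the other end was Slc15a4, an endolysosomal histidine transporter, with a log2 fold change of -0.32. The extremes named here and for the lists that follow are those among genes whose mean log2 CPM reached 2. With vehicle they were Ctss, a lysosomal protease that cleaves endosomal receptors, at 0.95 and Pld3 at -0.34. Pld3 is a nuclease that trims the nucleic acid ligands of these receptors. Dnase2a, under that level, was at -0.39 with vehicle. After LPS the highest was Ctsb in both genotypes, at 0.83 in Runx1KO and 0.48 in Control cells. The lowest at or above that level were Ctss at -0.51 in Runx1KO and Ctsl at -0.37 in Control cells. Under it, Pld4 was at -0.68 in Runx1KO and Dnase2a at -0.80 in Control cells.

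Of 8 co-receptors and decoys, 8 were tested and 0 called, the medians between genotypes being 0.22 with vehicle and 0.52 with LPS. Cd14, which hands ligands to several Toll-like receptors, was highest at a log2 fold change of 1.40 with vehicle and 1.80 with LPS. It had 626, 4303 and 9188 CPM in Runx1KO LPS libraries, against 461, 1563 and 2042 CPM in Control LPS libraries. After LPS it was again the highest, at 1.87 in Runx1KO and 1.48 in Control cells. Among co-receptor genes whose mean log2 CPM reached 2, the lowest was Lbp, the LPS-binding protein. It was at 0.05 and 0.14 between genotypes with vehicle and LPS. Of the genes under that level, Il1rl1 was at -1.47 with vehicle and -0.99 with LPS, and Cd180 at -0.23 with LPS. Of 16 adaptors and kinases, 15 were tested and 0 called, with medians of 0.25 and 0.34. The adaptor Ticam2 was highest at 1.72 with vehicle and 2.00 with LPS, with 7.53, 32.8 and 58.1 CPM in Runx1KO LPS libraries against 2.31, 11.7 and 10.5 CPM in Control LPS libraries. The inhibitory kinase Irak3 led after LPS, at 1.46 in Runx1KO and 1.24 in Control cells. The lowest values were -0.41 for Tab3 with vehicle and -0.44 for Traf3 with LPS between genotypes, and -0.16 for Irak1 in Runx1KO and -0.01 for Tab2 in Control cells after LPS. Of 8 factors downstream of the endosomal receptors, 8 were tested and 0 called, and Ikbke, a kinase that activates interferon regulatory factors, was highest throughout, at 1.41 and 2.19 between genotypes with vehicle and LPS and at 3.05 and 2.26 after LPS in Runx1KO and Control cells. The lowest were the interferon regulatory factors Irf8 (-0.38 with vehicle) and Irf1 (-0.26 with LPS) between genotypes, and Irf7 (-0.14 in Runx1KO) and Chuk (-0.11 in Control) after LPS.

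For each receptor gene, the 3 genes of most similar pattern were sought among 7607 genes by Pearson's r of log2 CPM over the 12 libraries, which share group, number and depth. Tlr2 was most like Clec4e (r = 0.99), a C-type lectin receptor, followed by Rasip1 and Cdc42ep2. Tlr7 was most like Klf7 (0.98), Sms-ps and Metrnl, and Tlr1 most like Klf3 (0.96), Fam49a and Ripk2. Tlr5 was most like Abhd13 (0.95), Man1c1 and Uap1l1. Tlr8 was most like Ssna1 (0.96), Tlr9 like Tapbp (0.97), Tlr13 like Pde8a (0.94) and Tlr6 like Aqp9 (0.92).

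The upstream sequences of the receptor with the largest genotype difference and of the neighbouring pair Tlr1 and Tlr6 are shown, since Runx1 binds DNA and since Tlr1 and Tlr6 share part of their sequence; no one of the 3 passed the test. Each is the 250 bases before a RefSeq start on GRCm38.p6, read 5′ to 3′ on the gene's strand, with capitals marking motif matches; the authors aligned to mm9, whose coordinates differ. Tlr5 lies on the plus strand, chr1:182954538-182954787, and Tlr1 and Tlr6 on the minus strand, chr5:64933559-64933808 and chr5:64959167-64959416.
Tlr5: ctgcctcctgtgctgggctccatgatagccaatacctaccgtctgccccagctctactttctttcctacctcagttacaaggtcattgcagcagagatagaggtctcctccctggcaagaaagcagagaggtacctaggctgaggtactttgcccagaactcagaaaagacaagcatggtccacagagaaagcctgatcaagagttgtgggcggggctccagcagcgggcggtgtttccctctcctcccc
Tlr1: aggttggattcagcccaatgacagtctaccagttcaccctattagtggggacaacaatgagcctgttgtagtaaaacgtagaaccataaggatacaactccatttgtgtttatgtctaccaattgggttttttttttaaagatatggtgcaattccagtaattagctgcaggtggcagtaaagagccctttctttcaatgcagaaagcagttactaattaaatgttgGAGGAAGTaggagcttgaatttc
Tlr6: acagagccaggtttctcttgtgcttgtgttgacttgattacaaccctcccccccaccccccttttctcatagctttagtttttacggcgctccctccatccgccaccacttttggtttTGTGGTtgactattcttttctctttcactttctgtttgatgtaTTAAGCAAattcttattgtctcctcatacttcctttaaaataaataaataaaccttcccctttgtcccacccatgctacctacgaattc
The RUNX core TGTGGT, searched on both strands, occurred in 14.05% of 32851 RefSeq promoters of this length and, among 10 entries for 8 of the receptor genes, in the one Tlr6 sequence shown, at position -132 from the start. The PU.1 motif GAGGAAGT (2.441% of promoters) was at -23 in the Tlr1 sequence. The C/EBP motif TTGCNNAA (9.564% of promoters) was at -89 in the Tlr6 sequence, as TTAAGCAA, and in the Tlr8 and Tlr3 entries. The Tlr5 window held none of the motifs searched, the NF-kB motif (GGG and TTTCC with any 2 bases between them, 1.412% of promoters) included, and no entry was found for Tlr7. A match is only a run of letters, and these data do not measure binding.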

How the data were processed

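Whole-number read counts per gene were deposited by the authors for 12 libraries of bone marrow neutrophils, without normalization. Per the submitters' processing notes, STAR 2.6.0a, featureCounts and the build mm9 were used; the sources used here do not give the annotation release, the strand setting or the treatment of shared reads. RNA came from Trizol and column purification with an ultra-low input library kit and ERCC spike-ins, per the labels' protocols. Columns were matched to samples by title (0 left out), and gene identifiers to symbols without version numbers (32620 of 37310).

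Genes were filtered with edgeR 4.0.16 filterByExpr, scaled by TMM and tested with its quasi-likelihood test in 1 model of 4 groups (R 4.3.3), with Benjamini-Hochberg adjustment over all 12917 genes tested and a threshold of 0.05. SE is that of the log2 fold change. CPM uses TMM-scaled library sizes; CPM per kb divides by the union of exons in a GRCm38 annotation. Log2 CPM used a prior count of 2. Exact permutation of 3 against 3 libraries cannot give a p below 0.1. Limits from counts of 0 cover counting error only. No pair of libraries of a group agreed within sampling noise (lowest chi-square per degree of freedom 68.3 over genes with at least 20 counts). DESeq2 1.42.0, limma 3.58.1, other scalings, no filter, a replicate block, fits of only the groups compared and leaving out libraries were tried.

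Named genes were the 9 receptor genes, Tlr4 and Runx1; from each pathway list the genes called or, with none, the highest and lowest fold change among genes whose mean log2 CPM reached 2; and the 3 most alike genes per receptor. Members and lists were chosen with earlier results of these data known. On data simulated for the vehicle genotype comparison (12679 genes), the test recovered 0, 40.3 and 69.7% of genes changed 2-, 4- and 8-fold. Same-number libraries deviated together between genotypes, in every pair, and between treatments in Control. In Runx1KO they did so between treatments for numbers 1 and 2 (correlation 0.314 and 0.537) but not for number 3 (0.0058). Differences at Runx1KO number 3 thus compare libraries that are not shown to share more than a number.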

Additional observations from a re-analysis of the deposited data

How the results depend on the processing

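The log2 fold changes of the 8 tested receptor genes were recomputed in 5 comparisons. Apart from leaving out libraries, 324 values kept their sign and their side of the threshold, 23 changed sign and 4 became significant. Where a value changed, the cause was not tested. Tlr5 (lower in Runx1KO) and Tlr7 and Tlr1 (higher in Runx1KO) kept their sign with vehicle and with LPS under each alternative run.

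With DESeq2's size factors in edgeR, Tlr6 changed sign to 0.0031 for Runx1KO against Control with vehicle. With library size alone, the changed values were Tlr6 0.070 for Runx1KO against Control with vehicle, Tlr8 0.019 for the same with LPS, Tlr1 -0.035 for LPS in Control, Tlr1 -0.084 and Tlr13 -0.22 for LPS in Runx1KO, and Tlr1 -0.049 and Tlr7 -0.078 for the difference of the LPS responses. That scaling moved the median of all genes to -0.14 for LPS in Control, -0.28 for LPS in Runx1KO and -0.15 for the difference. With DESeq2, Tlr6 was 0.0037 with vehicle. With limma-voom, Tlr2 was -0.060 and Tlr9 -0.82 for Runx1KO against Control with LPS, Tlr1 -0.025 for LPS in Control, and Tlr5 -0.36, Tlr8 -0.21 and Tlr9 -0.42 for the difference.

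With the replicate block, Tlr8 was 0.18 for Runx1KO against Control with vehicle, Tlr1 -0.0017 for LPS in Control and Tlr8 -0.32 for the difference. The block with limma-voom, added after the data were seen, gave Tlr2 -0.061 for Runx1KO against Control with LPS. The block with DESeq2, also added later, gave Tlr8 0.21 with vehicle, Tlr9 -0.17 with LPS, and Tlr5 -0.025 and Tlr8 -0.37 for the difference. Receptor genes called were 1 with vehicle by the block with limma-voom, and 1 with vehicle and 2 with LPS by the block with DESeq2. The block changed no other call of a receptor gene.

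Genes called over the table, 123 with vehicle and 119 with LPS between genotypes, were 386 and 401 by DESeq2, 315 and 302 with the replicate block, 394 and 347 with the block and limma-voom, and 707 and 778 with the block and DESeq2. A fit of only the 2 groups compared called 27 with LPS. DESeq2 called 1 gene for LPS in Runx1KO, and with the block 39 there and 1 for the difference.

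Leaving out 1 library, or the libraries of 1 number, changed no call of a receptor gene. Where 1 group was left with fewer libraries, the spread was that of all groups in the fit. Genes called ranged from 1 to 70 with vehicle, where leaving out each of the 6 libraries gave 47 to 70 and each number 1 to 6. They ranged from 3 to 135 with LPS, where each number gave 3 to 25, each of the Control LPS libraries 49 to 66, and Runx1KO LPS libraries 2 and 3 gave 53 and 62. For Runx1KO against Control, Tlr5 ranged from -2.64 to -2.01 with vehicle and from -3.85 to -1.22 with LPS. Sign changes gave, with vehicle, ranges of -0.66 to 0.24 for Tlr2, -0.40 to 0.21 for Tlr6, -1.06 to 0.80 for Tlr8 and -1.24 to 1.86 for Tlr9. With LPS they were -0.52 to 0.80 for Tlr2, -1.90 to 0.94 for Tlr8 and -0.34 to 1.90 for Tlr9. For LPS in Control they were -0.35 to 0.54 for Tlr1, -1.34 to 0.25 for Tlr8, -0.20 to 3.81 for Tlr9 and -0.056 to 0.52 for Tlr13. For LPS in Runx1KO they were -0.16 to 0.86 for Tlr1, -0.0053 to 1.89 for Tlr2, -2.17 to 0.48 for Tlr5, -0.34 to 0.27 for Tlr6, -2.42 to 1.03 for Tlr8 and -0.13 to 0.51 for Tlr13. For the difference they were -0.27 to 0.77 for Tlr1, -0.34 to 1.01 for Tlr2, -1.57 to 1.02 for Tlr5, -0.21 to 0.65 for Tlr7, -1.75 to 1.36 for Tlr8, -1.05 to 2.28 for Tlr9 and -0.37 to 0.28 for Tlr13.

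Low counts limit Tlr9, Tlr5 and Tlr1 most, and 3 libraries a group limit all 8. In simulated data of the vehicle genotype comparison the test recovered 0% of genes changed 2-fold, so that a missing call is no sign of equal levels.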

Other observations

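Tlr12, a mouse receptor for profilin-like proteins of parasites that lies outside the 9 genes described, had few reads. It had 3, 2 and 3 reads in Runx1KO LPS libraries 1, 2 and 3 and 2, 0 and 14 reads in Runx1KO vehicle libraries, against 2, 3 and 0 reads in Control LPS and 2, 0 and 4 reads in Control vehicle libraries. The 14 reads of Runx1KO vehicle library 3 came to 0.49 CPM, between the 0.35 and 0.62 CPM of Tlr9 in Runx1KO vehicle libraries 3 and 2. Counts this small allow no comparison of the groups.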
